A study of Mus musculus with 26 samples.

Results

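RNA 5-hydroxymethylcytosine (5hmC) peaks were examined in 7 genes that encode nuclear RNA-binding proteins of the paraspeckle and FET families or their close functional relatives: Sfpq, Nono, Pspc1, Ewsr1, Taf15, Tardbp and Matr3. A peak belonged to these genes when its summit, the midpoint of the deposited interval, lay inside the span of the gene. By that rule 184 of 56538 peaks were members. They merged into 38 of 23367 regions, where a region is a chain of intervals that overlapped by at least 1 bp in any of the 13 immunoprecipitated (IP) libraries. The 7 genes are among 22380 protein-coding gene entries of the annotation.

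The peaks came from hMeRIP-seq, in which sonicated total RNA was pulled down with an antibody to 5hmC and sequenced beside an input library. WT ESC were wild-type mouse embryonic stem cells with 3 replicates. TKO ESC were stem cells lacking Tet1, Tet2 and Tet3, the enzymes that oxidize 5-methylcytosine, also with 3 replicates. WT EB were embryoid bodies, aggregates of differentiating cells, that wild-type stem cells had formed over 4 days without LIF, the cytokine that keeps them undifferentiated, again with 3 replicates. Tet2-KI ESC carried a Flag, HA and Twin-Strep tag at the end of the endogenous Tet2, and Tet2dRBD-KI ESC carried the same tag on a Tet2 without its RNA-binding domain. Both knock-in groups had 2 replicates and were clonal lines made by genome editing. The question behind the comparisons was which RNA 5hmC depends on the Tet enzymes, which is kept during differentiation, and which needs the RNA-binding domain of Tet2.

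Sfpq, Nono and Pspc1 are paralogs of the DBHS family, which pair with each other through RNA recognition motifs and a coiled coil and bind the long noncoding RNA Neat1 to build paraspeckles, nuclear bodies that hold back proteins and RNAs. Ewsr1 and Taf15 are FET proteins, which carry low-complexity activation domains and arginine- and glycine-rich repeats and act in transcription and splicing. Tardbp encodes TDP-43, a splicing repressor with a glycine-rich tail, and Matr3 encodes matrin 3, a nuclear matrix protein that binds RNA. Transcripts of proteins of this kind are often regulated through their own splicing.

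The lists held 498 to 10383 peaks, and the shortest were those of TKO ESC replicate 1 (964 peaks) and WT EB replicate 1 (498 peaks), whose label prefixes differ from that of replicates 2 and 3 of their groups. Read counts were not used here and depth was unknown, so the lack of a listed peak says only that none passed the caller's threshold. A peak also needs the transcript to be present, and in such bulk samples fewer cells of a type and less RNA per cell cannot be told apart. Of 7 stem cell marker genes 4 had a peak and of 7 early differentiation markers 2 had a peak, none of them at a region with a peak in every replicate of any group, so the lists do not serve to check the cell types. The study describes the replicates of all groups as independent experiments. For the knock-in groups it reports 3 of them, whereas 2 replicates of each were available here.

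The regions of Sfpq, Nono and Pspc1 are shown first as sequence, because some of their peaks fell at related places of the 3 genes. Each run is the 200 bases around the median summit of a region, from build mm9 (NCBIM37) and on the strand of the gene, with exon bases of the coding transcript in capitals and intron bases in lower case. At the end of exon 5 of Sfpq, exon 7 of Nono and exon 4 of Pspc1, the window held the coding sequence up to the splice donor, and that of Sfpq reached into exon 6.
Sfpq (chr4:126703199-126703398, plus strand): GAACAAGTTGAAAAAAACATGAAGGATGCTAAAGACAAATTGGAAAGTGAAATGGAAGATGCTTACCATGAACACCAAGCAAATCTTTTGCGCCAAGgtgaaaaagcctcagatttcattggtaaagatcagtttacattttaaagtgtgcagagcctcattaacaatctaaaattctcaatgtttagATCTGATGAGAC
Nono (chrX:98638756-98638955, plus strand): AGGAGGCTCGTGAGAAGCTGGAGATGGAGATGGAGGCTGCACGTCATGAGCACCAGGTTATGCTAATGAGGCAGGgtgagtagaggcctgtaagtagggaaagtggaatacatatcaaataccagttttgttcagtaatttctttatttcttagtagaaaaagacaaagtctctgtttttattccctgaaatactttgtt
Pspc1 (chr14:57380577-57380776, minus strand): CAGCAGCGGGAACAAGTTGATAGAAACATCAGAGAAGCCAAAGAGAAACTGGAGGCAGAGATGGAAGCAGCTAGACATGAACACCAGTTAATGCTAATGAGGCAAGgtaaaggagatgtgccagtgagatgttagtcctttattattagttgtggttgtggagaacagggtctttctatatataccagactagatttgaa
The next exon, exon 8 of Nono and exon 5 of Pspc1, also carried a region in each of these genes.
Nono (chrX:98639631-98639830, plus strand): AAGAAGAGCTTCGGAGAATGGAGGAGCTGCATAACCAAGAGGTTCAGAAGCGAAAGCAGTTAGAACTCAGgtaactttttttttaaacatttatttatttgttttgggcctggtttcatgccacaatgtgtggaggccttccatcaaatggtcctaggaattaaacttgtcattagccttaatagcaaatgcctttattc
Pspc1 (chr14:57377474-57377673, minus strand): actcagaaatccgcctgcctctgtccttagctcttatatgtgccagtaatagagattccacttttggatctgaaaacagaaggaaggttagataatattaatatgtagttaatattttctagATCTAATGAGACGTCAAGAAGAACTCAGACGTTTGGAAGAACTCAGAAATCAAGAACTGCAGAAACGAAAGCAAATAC
At exon 7 of Sfpq, exon 9 of Nono and exon 6 of Pspc1 the window held the splice acceptor and the purine-rich start of the exon.
Sfpq (chr4:126703935-126704134, plus strand): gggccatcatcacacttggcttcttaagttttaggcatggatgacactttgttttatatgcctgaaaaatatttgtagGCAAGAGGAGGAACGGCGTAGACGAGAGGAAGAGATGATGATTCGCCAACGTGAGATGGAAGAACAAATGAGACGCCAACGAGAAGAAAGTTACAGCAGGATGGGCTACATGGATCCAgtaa
Nono (chrX:98639928-98640127, plus strand): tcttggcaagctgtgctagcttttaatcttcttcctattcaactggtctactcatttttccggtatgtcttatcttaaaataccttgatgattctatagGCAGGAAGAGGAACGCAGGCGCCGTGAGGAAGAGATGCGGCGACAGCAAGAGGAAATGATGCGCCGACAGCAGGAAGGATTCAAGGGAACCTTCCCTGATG
Pspc1 (chr14:57367709-57367908, minus strand): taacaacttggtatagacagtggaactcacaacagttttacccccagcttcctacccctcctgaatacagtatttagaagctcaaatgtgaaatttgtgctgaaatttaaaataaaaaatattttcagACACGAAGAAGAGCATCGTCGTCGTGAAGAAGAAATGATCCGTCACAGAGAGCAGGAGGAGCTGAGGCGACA

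These exons correspond to each other between the paralogs. The coding exons of the 3 genes were aligned and matched where each was the best match of the other, a comparison made after the sequences had been seen. Across Sfpq, Nono and Pspc1, 6 exon sets were matched. With the 13 libraries pooled, 3 consecutive sets had a peak within 100 bases in all 3 genes. At each of these 3 sets, Nono and Pspc1 had a peak in the same library only in Tet2-KI replicate 1, the longest list. Of the remaining sets, 2 had peaks in 1 gene only, each in a single library, and 1 had none. At 2 exons matched between Sfpq and Nono but not across all 3 genes, the peaks did not correspond. Sfpq exon 9 had peaks in 13 libraries and the matching Nono exon 11, at 74.2% identity, in 0. Sfpq exon 10 had peaks in 8 libraries and the matching Nono exon 12, at 69.8% identity, in 0. The first shared set was 197 coding bases long in each gene, with 69.2% identity between Nono and Sfpq, 75.6% between Nono and Pspc1 and 79.8% between Pspc1 and Sfpq. Peaks lay there in 12 libraries for Sfpq, 5 for Nono and 5 for Pspc1. In the second set, 85 bases in each gene, peaks lay in 2 libraries for Sfpq, 6 for Nono and 3 for Pspc1. The 2 Sfpq peaks were second peaks of Tet2-KI replicate 1 and Tet2dRBD-KI replicate 1 inside the region at the end of exon 5. They formed no region of their own. In the third set the exon had 118, 103 and 109 coding bases, and peaks lay in 11, 4 and 4 libraries. The 3 sets encode neighboring stretches of the protein, and none of the Sfpq and Pspc1 windows had another genomic match of at least 90% identity over at least 100 bases. The Nono exon 9 window did have such matches, 2 of them.

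**Figure D1:**
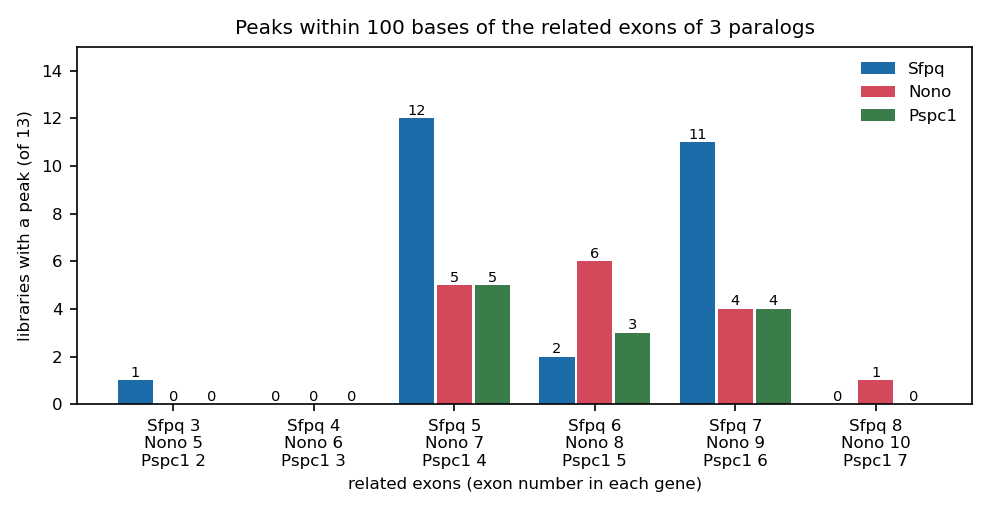
Number of the 13 libraries (vertical axis) with a peak summit within 100 bases of each exon, for the 6 exon sets matched between Sfpq, Nono and Pspc1 (horizontal axis, exon numbers in each gene). Each bar is a gene. With the libraries pooled, peaks in all 3 genes occurred at 3 consecutive sets alone. These sets had 12, 5 and 5, then 2, 6 and 3, then 11, 4 and 4 libraries. Nono and Pspc1 had a peak in the same library there only in Tet2-KI replicate 1. The 2 peaks at Sfpq exon 6 were second peaks of the exon 5 region. Sfpq exons 9 and 10, whose matched Nono exons had no peak, are not drawn.

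Sfpq, which regulates transcription and splicing and is needed to form paraspeckles, carried the most peaks of the 7 genes: 61 peaks in 11 regions, with at least 1 peak in each of the 13 libraries. Only 187 of 22238 coding gene symbols (0.841%) had at least as many regions. The gene lies on chromosome 4 from 126698568 to 126714257 on the plus strand. Its 4 leading regions followed each other from exon 5 to the start of exon 10 of the transcript Sfpq-001.

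The Sfpq region at the end of exon 5 (chr4:126703182-126703604) had a summit in the intron, 4 bases past the exon. Fold enrichment, the ratio of IP to input signal at the summit, was 3.99, 9.17 and 8.87 in WT ESC replicates 1 to 3. In TKO ESC it was 7.07, 10.3 and 10.4. No peak was listed in WT EB replicate 1, while replicates 2 and 3 had 9.90 and 9.68. The TKO ESC values overlapped those of both other groups, and the 2 WT EB values lay above every WT ESC value, with WT ESC replicate 1 the lowest. That order did not hold on the percentile of each value within its own list, where WT EB replicates 2 and 3 were at 76.8 and 74.2 and WT ESC replicates 1 to 3 at 12.8, 87.5 and 86.2. Both libraries of each knock-in group had a peak.

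The region at exon 7 (chr4:126703891-126704292) lay in coding sequence. Its fold enrichment was 4.44, 5.00 and 6.91 in WT ESC, 7.49 and 6.75 in TKO ESC replicates 2 and 3, and 6.44 and 6.68 in WT EB replicates 2 and 3. The first replicates of TKO ESC and WT EB had no peak there, and all 4 knock-in libraries did.

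The region at exon 9 (chr4:126704521-126704744) was one of only 58 regions of 23367 (0.248%) with a peak in every library, and 2 of those 58 lay in the 7 genes. Its summit was 2 bases before the splice acceptor of exon 9, and the window, printed as the others, spans the short intron between exons 8 and 9.
Sfpq (chr4:126704539-126704738, plus strand): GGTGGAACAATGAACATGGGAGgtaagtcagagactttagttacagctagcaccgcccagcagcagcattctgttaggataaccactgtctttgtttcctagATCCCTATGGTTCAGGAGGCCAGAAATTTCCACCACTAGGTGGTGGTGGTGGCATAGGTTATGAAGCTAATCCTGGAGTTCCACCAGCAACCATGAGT
Fold enrichment was 14.6, 8.75 and 7.88 in WT ESC, 10.3, 5.78 and 6.99 in TKO ESC, and 3.94, 10.6 and 5.60 in WT EB. Replicate 1 was the highest in both stem cell groups and the lowest in WT EB, and the 3 groups overlapped.

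The region at the acceptor of exon 10 (chr4:126706947-126707200), which is the last exon of Sfpq-001, was the only Sfpq region with a peak in every WT ESC library and in no TKO ESC library. Its window is shown because of this pattern of listed peaks.
Sfpq (chr4:126706968-126707167, plus strand): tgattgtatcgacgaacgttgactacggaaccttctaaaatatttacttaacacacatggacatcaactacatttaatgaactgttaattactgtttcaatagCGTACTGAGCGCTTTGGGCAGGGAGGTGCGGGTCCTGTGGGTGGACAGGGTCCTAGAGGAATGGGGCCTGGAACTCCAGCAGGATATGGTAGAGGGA
Fold enrichment was 4.19, 9.60 and 6.34 in WT ESC and 11.1 and 9.77 in WT EB replicates 2 and 3. The exon 9 region 2.43 kb upstream had peaks in all 3 TKO ESC libraries. At the exon 10 region no TKO ESC library had a peak, nor did WT EB replicate 1, and the cause was not tested. Both Tet2-KI libraries had a peak and 1 of 2 Tet2dRBD-KI libraries did.

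Beyond the last exon of Sfpq-001, in introns of longer transcripts, Sfpq had 4 more regions. The nearest (chr4:126709067-126709299) had peaks in 4 libraries, namely WT ESC replicate 2 (fold enrichment 3.22), both Tet2-KI and 1 Tet2dRBD-KI. The other three of them, in 1 or 2 libraries each, also overlap the noncoding gene Gm12940, so their peaks cannot be assigned to Sfpq alone. Another 3 regions, at exons 1 and 3, had peaks in 1 or 2 libraries.

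Nono, the usual partner of Sfpq, had 17 peaks in 4 regions and 8 libraries (chromosome X, 98624657 to 98643930, plus strand). All 4 lay within 1.95 kb around exons 7 to 10. The exon 8 region (chrX:98639479-98639869), in the intron 31 bases past the exon, had fold enrichments of 7.58, 5.07 and 5.39 in WT ESC. It had no peak in any TKO ESC or WT EB library, a peak in both Tet2-KI libraries and in 1 of 2 Tet2dRBD-KI libraries. The exon 7 region had peaks in WT ESC replicates 1 (9.48) and 3 (5.44), in both Tet2-KI libraries and in 1 Tet2dRBD-KI library, and in no TKO ESC or WT EB library. The exon 9 region had single peaks in WT ESC (4.06 in replicate 3) and TKO ESC (4.23 in replicate 3), and in 1 library of each knock-in group. WT EB thus held no peak in any part of Nono.

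Pspc1, the third paralog and a core paraspeckle protein, had 12 peaks in 3 regions and none in WT ESC (chromosome 14, 57341278 to 57397153, minus strand). The exon 4 region (chr14:57380569-57380820) had fold enrichments of 4.01 and 5.64 in TKO ESC replicates 2 and 3 and of 14.0 and 11.2 in WT EB replicates 2 and 3. The exon 6 region (chr14:57367697-57367913) had 5.19 in TKO ESC replicate 2 and 11.2 and 9.52 in WT EB replicates 2 and 3. The exon 5 region (chr14:57377474-57377700) had 9.89 in TKO ESC replicate 2 and 9.22 in WT EB replicate 3. None of the 3 regions had a peak in a WT ESC or Tet2dRBD-KI library, and each had a peak in Tet2-KI replicate 1 only of the knock-in libraries, the longest list of the series. At exon 4, where both groups have 2 values, those of WT EB lay above those of TKO ESC.

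**Figure D2:**
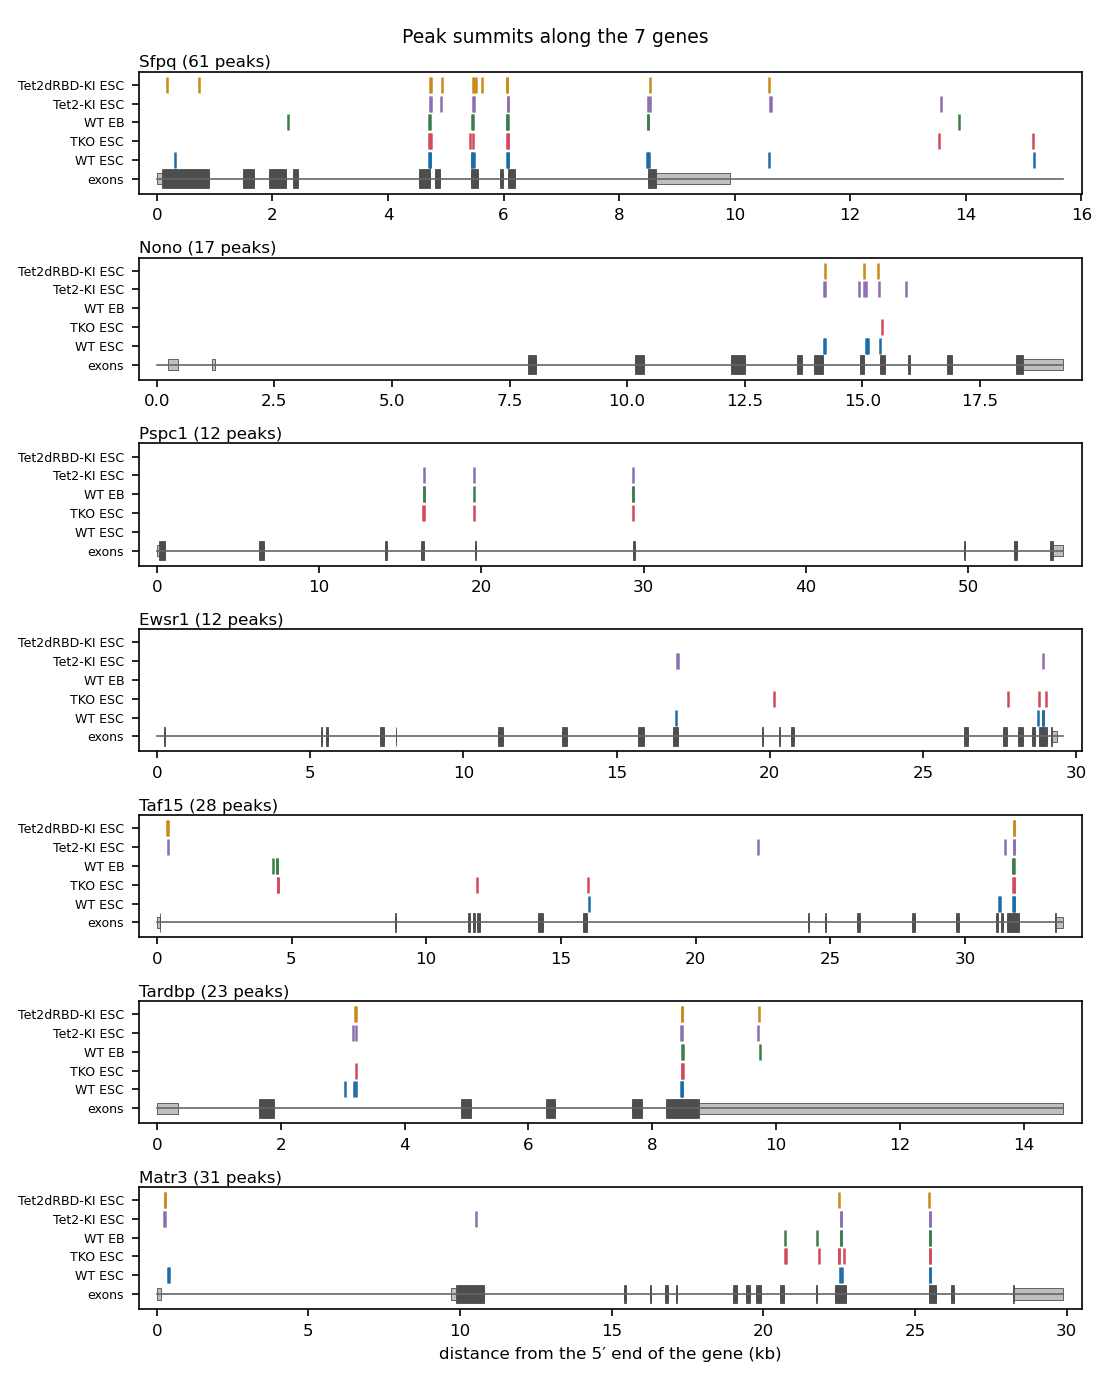
Peak summits of the 5 groups (rows of ticks, 1 color a group) along each gene, with the exons of its coding transcript below (tall boxes coding, low boxes untranslated) and the distance from the 5′ end of the gene in kb on the horizontal axis. The summits of Sfpq, Nono and Pspc1 cluster at a few neighboring exons, and those of Taf15, Tardbp and Ewsr1 at a single long coding exon and a few other places.

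The regions in long coding exons of Taf15 and Ewsr1 are shown with GGAGG and GGTGG in capitals, because these purine-rich repeats set their windows apart. Each run is again 200 bases of mm9 on the strand of the gene, and overlapping matches run together.
Taf15 (chr11:83318296-83318495, plus strand): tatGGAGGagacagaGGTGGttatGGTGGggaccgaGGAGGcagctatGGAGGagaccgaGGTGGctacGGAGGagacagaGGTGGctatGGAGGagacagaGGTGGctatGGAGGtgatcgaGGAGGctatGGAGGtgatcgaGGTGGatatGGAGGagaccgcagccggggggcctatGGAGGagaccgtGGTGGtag
Ewsr1 (chr11:4970263-4970462, minus strand): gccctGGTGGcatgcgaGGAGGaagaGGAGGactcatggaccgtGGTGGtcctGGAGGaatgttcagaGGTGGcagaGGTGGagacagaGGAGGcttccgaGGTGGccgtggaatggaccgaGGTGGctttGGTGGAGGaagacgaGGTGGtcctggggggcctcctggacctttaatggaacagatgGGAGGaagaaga
The Taf15 window held 10 GGAGG and 7 GGTGG matches, and the Ewsr1 window 6 and 8. As many as the 17 of Taf15 were found in 15 of 18432 windows around regions in coding genes (0.0814%), and as many as the 14 of Ewsr1 in 35 (0.19%). At least 1 GGAGG stood in 23 of 38 member windows (60.5%) and in 42.1% of all windows, and at least 1 GGTGG in 14 (36.8%) and in 31.5%. On the opposite strand, as CCTCC, the first motif stood in 6 member windows (15.8%) and in 16.3% of all windows, and as CCACC the second stood in 5 (13.2%) and in 12.4%.

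Taf15 had 28 peaks in 7 regions and a peak in each of the 13 libraries (chromosome 11, 83286588 to 83320245, plus strand). The region in exon 15 (chr11:83318282-83318529), which encodes glycine-rich repeats, was the other member region with a peak in every library. Fold enrichment was 4.45, 4.49 and 4.89 in WT ESC. It was 7.70, 4.06 and 4.92 in TKO ESC and 4.19, 3.49 and 2.92 in WT EB. The WT EB values lay below every WT ESC value, while the TKO ESC values lay on both sides of them.

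A Taf15 region deep in the first intron (chr11:83290813-83291197) had peaks only in TKO ESC replicates 2 and 3, with fold enrichments of 13.8 and 9.68, and in WT EB replicates 2 and 3, with 5.21 and 6.06. It was 33.5% pyrimidine and 27.0% G and C. A region near the start of that intron (chr11:83286875-83287105) had peaks in Tet2-KI replicate 2 and in both Tet2dRBD-KI libraries and in no other library. The region at exon 14 (chr11:83317774-83318169) had peaks in WT ESC replicates 1 (4.06) and 2 (4.91) and in Tet2-KI replicate 1. The remaining 3 regions had peaks in 1 or 2 libraries.

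Ewsr1 had 12 peaks in 4 regions and 7 libraries (chromosome 11, 4969692 to 4999269, minus strand), and none in WT EB or Tet2dRBD-KI. The region in exon 17 of Ewsr1-009 (chr11:4970147-4970605) had low fold enrichments of 3.37, 3.52 and 2.67 in WT ESC, below most other peaks of those lists (percentiles 6.70, 8.84 and 1.57). It had 4.88 in TKO ESC replicate 3 and a peak in Tet2-KI replicate 1. The region at exon 9 (chr11:4982172-4982430) had peaks in both Tet2-KI libraries and in WT ESC replicate 1 (3.71). The windows of both regions had 3 further genomic matches each, with identities of up to 97.5% and 95.0%, so reads of these sites may have been shared with near-identical copies. The other two regions were each in a single TKO ESC library.

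Tardbp had 23 peaks in 3 regions and a peak in each of the 13 libraries (chromosome 4, 147986491 to 148001128, minus strand). The region in exon 6 (chr4:147992528-147992758) codes for part of the glycine-rich tail in Tardbp-001 and is spliced out as an intron in other coding isoforms. Fold enrichment was 6.76, 6.29 and 3.98 in WT ESC, 7.41, 3.69 and 4.04 in TKO ESC, and 2.91 and 5.36 in WT EB replicates 1 and 2. WT EB replicate 3 was the only library of the series without a peak there, and the groups overlapped.

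The Tardbp region in intron 2 (chr4:147997805-147998181) had fold enrichments of 5.66, 6.44 and 11.3 in WT ESC. TKO ESC replicate 2 alone of its group had a peak, at 9.19, and WT EB had none. All 4 knock-in libraries had a peak. The third region, in the 3′ untranslated part of exon 6 (chr4:147991295-147991517), had peaks in WT EB replicate 3 (4.75) and in 1 library of each knock-in group. The exon 6 window had a further genomic match of 95.0% identity and the untranslated one a match of 99.0% identity over its 200 bases, whereas the intron 2 window had none.

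Matr3 had 31 peaks in 6 regions and 11 libraries (chromosome 18, 35721812 to 35751699, plus strand), none of them in the first replicates of TKO ESC and WT EB. Most of its peaks lay in 2 neighboring coding regions, in exons 12 and 13, with 9 libraries each. In exon 12 (chr18:35744207-35744579) fold enrichment was 3.22 and 5.05 in WT ESC replicates 2 and 3, 7.81 and 4.60 in TKO ESC replicates 2 and 3, and 8.08 and 25.2 in WT EB replicates 2 and 3. In exon 13 (chr18:35747172-35747414) it was 11.2 and 11.2 in WT ESC, 8.69 and 4.15 in TKO ESC, and 11.7 and 21.3 in WT EB, in the same replicates. In both, the WT EB values were above the other values, and those of replicate 3 were at percentiles 98.7 and 97.7 of that list. WT EB replicate 2 was at percentile 85.2 in exon 13, below the 92.9 of WT ESC replicates 2 and 3, so the order did not hold there on that scale. Each had peaks in both Tet2-KI libraries and in Tet2dRBD-KI replicate 1. Both windows also had a further genomic match of 90.1% and 91.2% identity.

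The remaining Matr3 regions had peaks in 1 to 5 libraries. The region in intron 1 (chr18:35721950-35722327), 278 bases from the gene start, had peaks in all 4 knock-in libraries and in WT ESC replicate 1 (3.56). The region at exon 10 (chr18:35742411-35742658) had peaks in TKO ESC replicates 2 (4.59) and 3 (9.01) and in WT EB replicate 3 (11.2), and in no WT ESC or knock-in library. The other two regions had peaks in 1 or 2 libraries.

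**Figure D3:**
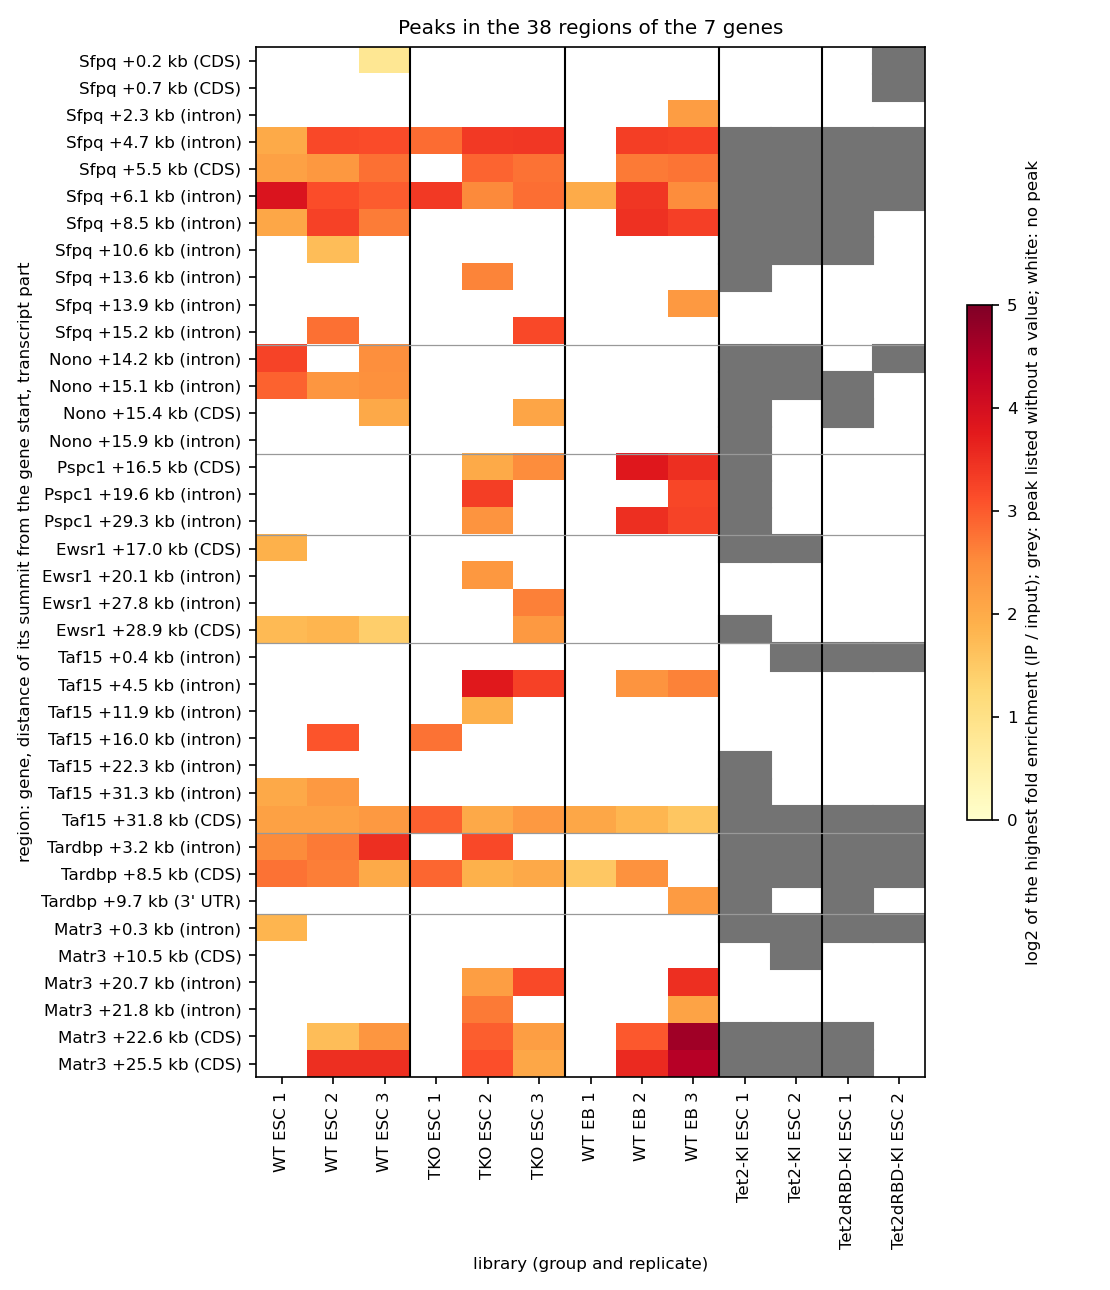
Each of the 38 regions (rows: gene, distance of the summit from the gene start, transcript part) in the 13 libraries (columns), colored by log2 of the highest fold enrichment, with grey for peaks of the knock-in lists, which hold no value, and white for no peak. The rows of Sfpq at 6.1 kb and Taf15 at 31.8 kb are filled in every column, and the 3 Pspc1 rows are empty in WT ESC.

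Over the 7 genes, 24 of 38 regions had a peak in at least 3 libraries (63.2%), against 28.3% of all 23367 regions, and 9 were seen in 1 library (23.7%), against 53.6%. By transcript part, 12 summits lay in coding sequence, 1 in a 3′ untranslated region and 25 in introns (65.8%), against 69.7% intronic over all regions in coding genes. Many of the intronic members lay close to exons, while the farthest summit was 6675 bases from an exon boundary. Of these 25, 15 overlapped an exon (60.0%), against 20.1% of intronic regions in coding genes. The median distance from summit to exon boundary was 50.5 bases over all 38 members, exonic summits included. Over all regions in coding genes it was 660.5 bases. Intron length was not taken into account. An exon boundary stood inside the 200-base window in 21 members (55.3%), against 28.5%.

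The windows held fewer pyrimidines than the genes around them at the median. Pyrimidines made up 28.0% to 55.0% of the member windows with a median of 44.0%, where all windows had a median of 42.5%. Over the whole spans of the 7 genes the share was 50.2% to 52.7% and over their exons 40.6% to 49.4%. The lowest was the Taf15 exon 15 window and the highest the Sfpq window in exon 1. None of the 38 windows reached 65% pyrimidine, against 4.04% of all windows, and none held a tandem repeat of at least 18 bases with units of up to 4 bases, against 8.50%. GAAGA stood in 17 members (44.7%) and in 42.6% of all windows, and GAGGA in 17 (44.7%) and in 42.2%. These motifs can overlap each other and GGAGG. Their reverse complements TCTTC and TCCTC each stood in 4 member windows (10.5%), against 14.9% and 14.1%.

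Between WT ESC and TKO ESC, 9 member regions had a peak in every WT ESC library, and 2 of them had none in TKO ESC, the Sfpq exon 10 and the Nono exon 8 region. Over all 1532 such regions 494 had none in TKO ESC, which is 32.2%, and the members were at 22.2%. Among coding-sequence regions 11.0% had none and among intronic regions 30.4%. Of the 9 member regions, 2 of 5 intronic and 0 of 4 coding-sequence regions had none, which is too few to set the members apart from these shares. Of the 9, 4 kept a peak in all 3 TKO ESC libraries. Those were Sfpq exons 5 and 9, Taf15 exon 15 and Tardbp exon 6. Conversely, 4 member regions had a peak in every TKO ESC library and 0 of them lacked one in WT ESC, where 1.73% of 346 regions did. Without TKO ESC replicate 1, the shortest of its lists, 10 member regions had a peak in every TKO ESC library and 3 of these had none in WT ESC: Pspc1 exon 4, Taf15 intron 1 and Matr3 exon 10. The share over all regions was then 18.8%.

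Fold enrichment was tested in the 283 regions with a peak in all 6 of these libraries, which took in the 4 member regions just named. The differences of WT ESC minus TKO ESC on the log2 scale were 0.42 ± 0.37 (SE) at Sfpq exon 9, −0.41 ± 0.43 at Sfpq exon 5, −0.22 ± 0.28 at Taf15 exon 15 and 0.21 ± 0.40 at Tardbp exon 6, with n = 3 in each group. The two-sided exact permutation p-values were 0.4, 0.5, 0.6 and 0.9, and 0.1 is the smallest p that 3 against 3 allow. Adjusted over the 283 regions they were 0.96 to 1.0, and no difference passed the test. Within same-numbered pairs, WT ESC was higher in 3 of 3 at Sfpq exon 9 (0.42 ± 0.13, SE over 3 pairs) and lower in 3 of 3 at Sfpq exon 5 (−0.41 ± 0.21). The exact sign-flip permutation p was 0.25 for each, the smallest that 3 pairs allow. On the percentile scale Sfpq exon 9 was again higher in 3 of 3 pairs, while Sfpq exon 5 was lower in 1 and higher in 2. At Taf15 exon 15 and Tardbp exon 6 the sign-flip p was 0.75 and 1.0. Single libraries set the size of these differences. Without WT ESC replicate 1 they were −0.017 at Sfpq exon 5, 0.15 at Sfpq exon 9 and 0.061 at Tardbp exon 6, and without TKO ESC replicate 1 the difference at Taf15 exon 15 was 0.043. Values in every WT ESC library exceeded every TKO ESC value in 7.07% of the 283 regions and the reverse held in 2.47%. Neither was seen in a member.

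**Figure D4:**
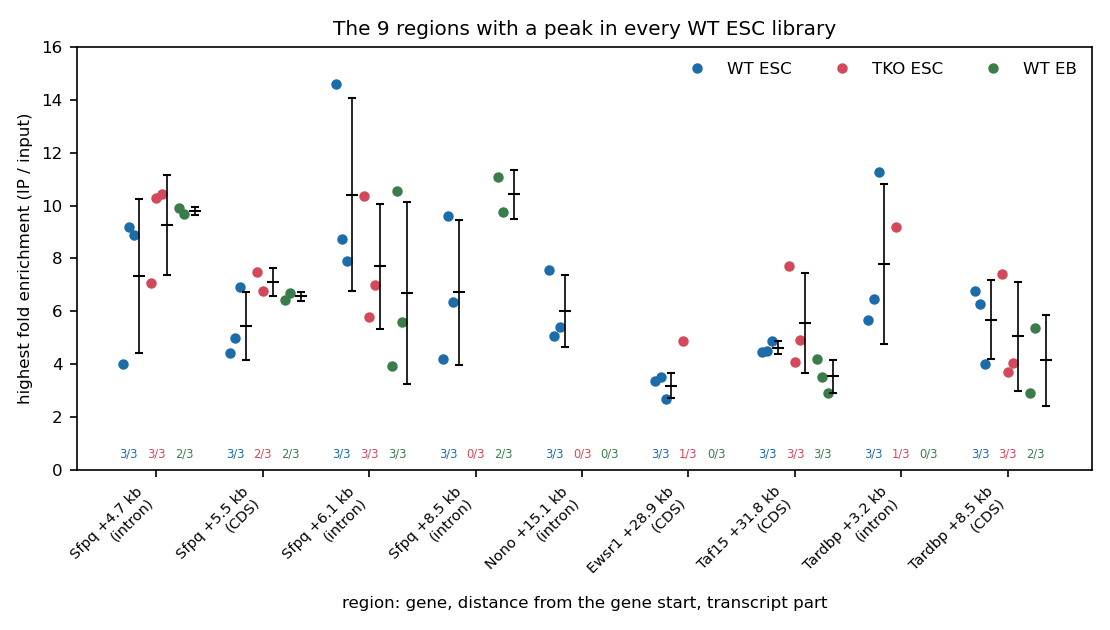
Highest fold enrichment of each library (points) at the 9 regions with a peak in every WT ESC library, colored by group, with the mean and SD where 2 or 3 libraries had a peak and the number of libraries with a peak at the foot. TKO ESC had 0 of 3 at Sfpq 8.5 kb and Nono 15.1 kb, and the WT ESC and TKO ESC values overlap at the 4 regions with a peak in all 6 of those libraries.

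Between WT ESC and WT EB, 3 of the same 9 regions had no peak in WT EB: Nono exon 8, Ewsr1 exon 17 and Tardbp intron 2. Over all 1532 regions the share was 54.9%, with 19.7% in coding sequence and 56.8% in introns. The members were at 33.3%, with 1 of 4 in coding sequence and 2 of 5 in introns. Sfpq exon 9 and Taf15 exon 15 were the 2 member regions with a peak in every WT EB library, and 0 of these lacked one in WT ESC, where 2.61% of 115 regions did. Without WT EB replicate 1, 10 member regions had a peak in both WT EB libraries and 3 of them had none in WT ESC, namely Pspc1 exon 4, Pspc1 exon 6 and Taf15 intron 1, with a share of 22.2% over all regions.

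At Taf15 exon 15 the fold enrichment was lower in all 3 WT EB libraries than in any WT ESC library, by 0.40 ± 0.16 (SE, n = 3 in each group) on the log2 scale. The exact permutation p was 0.1, the smallest possible, and 0.52 adjusted over the 94 regions with a peak in all 6 libraries. Such a separation with WT ESC higher was seen in 18.1% of those regions and with WT EB higher in 1.06%. At Sfpq exon 9 the difference was 0.70 ± 0.50 with an exact permutation p of 0.3, and the groups overlapped. That difference was 0.38 without WT EB replicate 1, 0.43 without WT ESC replicate 1, 1.09 without WT EB replicate 2 and 0.11 in the replicates of prefix 1703. On the percentile of each value within its own list, the groups overlapped at Taf15 exon 15, with WT ESC replicate 1 at 20.2 and WT EB replicate 1 at 21.3, and the exact permutation p was 0.2. The median log2 difference over the 94 regions was 0.30 in the same direction.

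Between the knock-in lines only the presence of peaks could be compared. Of 14 member regions with a peak in both Tet2-KI libraries, 1 had none in Tet2dRBD-KI, Ewsr1 exon 9, against 35.6% of 2999 such regions. In the other direction, 8 member regions had a peak in both Tet2dRBD-KI libraries and 0 of these lacked one in Tet2-KI, against 15.8% of 1373. The count was set by single libraries: without Tet2dRBD-KI replicate 1 it rose from 1 to 6 of 14, with 66.9% over all regions, and without Tet2-KI replicate 2 to 9 of 24, with 69.3%. The member share was below the background in each of these versions, which reuse the same libraries. With all libraries, the share over all regions was 34.6% in coding sequence and 36.5% in introns. The members had 1 of 6 and 0 of 8. Whether the members differ from these shares was not tested. With 2 libraries against 2, an exact permutation test cannot go below 0.33.

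The share of each list that fell in the 7 genes was 3.41, 2.11 and 2.15 peaks per 1000 in WT ESC (2.56 ± 0.74, SD, n = 3). In TKO ESC it was 5.19, 4.16 and 4.60 (4.65 ± 0.51, SD, n = 3) and in WT EB 6.02, 6.01 and 4.81 (5.62 ± 0.69, SD, n = 3). Every TKO ESC and WT EB library was above every WT ESC library. Tet2-KI had 2.50 and 2.77 and Tet2dRBD-KI 3.45 and 3.92. The number of member peaks itself was 14 to 15 in WT ESC, 5 to 18 in TKO ESC and 3 to 17 in WT EB, and the lists of WT ESC, with 4395 to 7113 peaks, were longer than those of TKO ESC and WT EB. The part of list length in the higher shares was not tested.

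**Figure D5:**
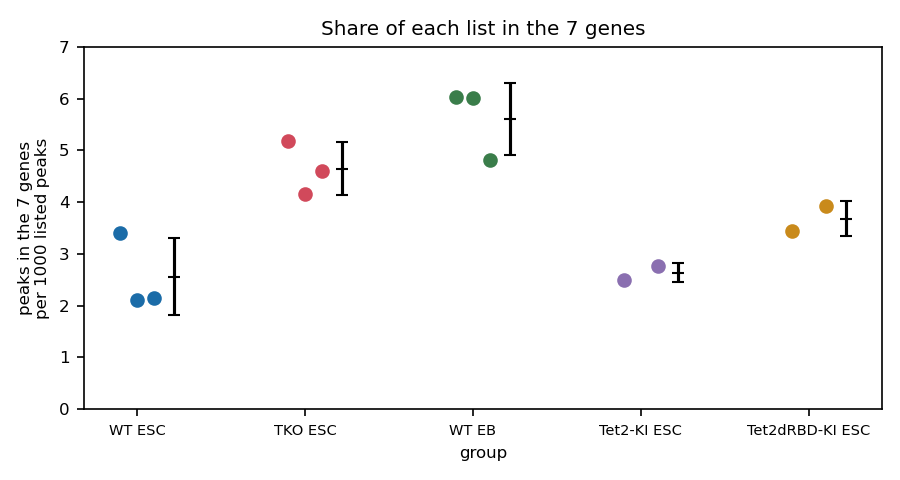
Peaks in the 7 genes per 1000 peaks of each list (points, 1 a library) in the 5 groups, with the mean and SD beside them. The WT ESC libraries lie between 2.11 and 3.41 and the TKO ESC and WT EB libraries between 4.16 and 6.02.

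Of 32 further genes of paraspeckles and related RNA-binding proteins, 28 had a peak, in 131 regions, and 9 genes had a region with a peak in every WT ESC library. These came to 18 regions, of which 2 had no peak in TKO ESC and 8 had none in WT EB, against 32.2% and 54.9% of all such regions. Neat1, the RNA that scaffolds paraspeckles, had 2 regions with a peak in every WT ESC library and none in WT EB. Their fold enrichments were 5.52 ± 0.90 and 3.58 ± 0.56 (SD, n = 3), and the first of these had no peak in TKO ESC either. The 4 related regions with a peak in all 13 libraries belonged to Malat1, a nuclear noncoding RNA (2 regions), and to the splicing regulators Hnrnpf and Hnrnpa2b1. Genes with a region in every WT ESC library also included Hnrnpa1, Hnrnpm, Hnrnpul1 and Rbm7. In the knock-in lines, 14 of 45 related regions with a peak in both Tet2-KI libraries had none in Tet2dRBD-KI, and 2 of 21 the reverse, against 35.6% and 15.8% of all such regions.

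The coding genes whose peak numbers ran most like those of Sfpq over the 13 libraries were Fgfr2 (Spearman's rho 0.88), Tcf20 (0.88) and Ppme1 (0.87), among 501 genes with a peak in at least 10 libraries. The median rho over these genes was 0.40. The libraries share their list lengths, and the peak number of Sfpq had a rho of 0.67 with list length and those of Fgfr2, Tcf20 and Ppme1 0.86, 0.64 and 0.61.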

How the data were processed

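Per the labels, 13 IP libraries and 13 inputs of mouse cells were sequenced. The authors filtered reads of low complexity and those from rRNA or tRNA, then trimmed and mapped (FastQC, Bowtie2, Trimmomatic and STAR per the submitters' notes, mm9), and called peaks of each IP against its own input with MACS2 at q below 0.05. The deposited lists give 200 bp intervals and, for 9 libraries, the fold enrichment, a ratio of IP over input at the summit. The 4 knock-in lists hold positions alone. The inputs entered only through peak calling.

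The 56538 intervals were merged over the 13 lists where they overlapped by at least 1 bp, with pandas 2.3.3, scipy 1.17.1 and numpy 2.4.6 under Python 3.11.15. Genes, exons and coding parts came from GENCODE M1 and sequence from NCBIM37, which is mm9 (samtools 1.23.1). A summit in an exon of any coding transcript was exonic. The strand is that of the gene, since no source states a stranded kit. Motifs were searched on both strands, exons were aligned with Biopython 1.88, and windows were matched to the genome with blastn 2.17.0. Of the intervals 99.7% lay on the reference. No 2 of the 78 library pairs shared more than 1.97% identical intervals.

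The highest fold enrichment of a library in a region was taken on the log2 scale and compared by a two-sided exact permutation test with Benjamini-Hochberg adjustment over every region with a peak in all 6 libraries. The merge, calls and test were checked on simulated data. Replicate numbers were taken to pair WT ESC with TKO ESC as a second view beside the unpaired permutation test. They were not taken to pair WT ESC with WT EB. Deviations of same-numbered WT ESC and TKO ESC libraries correlated at 0.33, 0.13 and 0.12 over 283 regions. Since WT ESC replicate 3 correlated better with TKO ESC replicate 2, these correlations do not settle the pairing. The members, lists and tests were chosen with earlier results of these data known. Named were the 7 genes, their regions with a peak in at least 3 libraries in full, and other listed genes with a region in every WT ESC library. The printed windows and the exon comparison were chosen after their values were seen. Results for 1 of the listed genes and 1 sequence window are not reported here. The alternatives were a merge at 100 bp, a merge of the compared groups alone, whole intervals inside genes, peaks above the median of their list, 2 of 3 replicates, replicates with prefix 1703 only, replicates left out, the mean in place of the highest fold enrichment, its percentile within the list, other exon definitions, and the replicate block.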

Additional observations from a re-analysis of the deposited data

How the results depend on the processing

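Every count here is of peaks that passed a threshold at unknown depth, so it can move with the length of the lists. No test could pass a threshold of 0.05 in this design, and the adjusted p-values therefore say nothing about stability. When peaks at or below the median fold enrichment of their list were dropped, 0 regions of WT ESC were absent from TKO ESC and 0 from WT EB, because 1 member region then remained in every WT ESC library. With a peak in at least 2 of 3 replicates, these counts were 4 and 5 of 13, against 49.7% and 67.8% of all such regions, and 3 of 10 regions of TKO ESC and 3 of 11 of WT EB were absent from WT ESC, against 17.4% and 21.9%. With the replicates of prefix 1703 only, the last 2 counts were 3 of 10 each, against 19.8% and 23.7%. Leaving out 1 library at a time gave 2 to 3 regions of WT ESC absent from TKO ESC, 3 to 4 absent from WT EB, and 0 to 3 of TKO ESC and 0 to 3 of WT EB absent from WT ESC, where TKO ESC replicate 1 and WT EB replicate 1 made the difference. With single libraries left out, the Tet2-KI count was 2 to 9 of 14 to 24 regions, against 40.1% to 69.3% of all such regions, and the Tet2dRBD-KI count 0 to 2 of 8 to 15, against 26.4% to 49.2%. When any exon overlap of the interval counted as exonic, 10 of the 38 regions were intronic instead of 25. The difference of WT ESC minus TKO ESC at Taf15 exon 15, −0.22 on the log2 scale, was −0.42 to 0.043 with 1 library left out and reversed without TKO ESC replicate 1, to 0.043, and with prefix 1703 only, to 0.068. With 1 library left out, the other differences from TKO ESC were −0.62 to −0.017 at Sfpq exon 5, 0.15 to 0.66 at Sfpq exon 9 and 0.016 to 0.52 at Tardbp exon 6, and those from WT EB were 0.27 to 0.53 at Taf15 exon 15 and 0.38 to 1.09 at Sfpq exon 9. Merging at 100 bp, merging the compared groups alone and requiring whole intervals inside the genes left the 6 counts of regions absent from another group within 1.5 times.

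For the counts, the replicate block asks for a peak in the first group and none in the second in each same-numbered pair, which is the same condition as without it, so its 2 regions of WT ESC absent from TKO ESC and 3 absent from WT EB are no separate check. For fold enrichment, the exact sign-flip p-values over the pairs were 0.25 to 1.0, and 0.25 is the smallest that 3 pairs allow. For WT ESC and WT EB the same-numbered deviations correlated at 0.29, 0.15 and −0.02 over 94 regions, and not every library correlated best with its own number. That was so for WT ESC and TKO ESC too, where WT ESC replicate 3 correlated at 0.16 with TKO ESC replicate 2 and at 0.12 with replicate 3.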
